A study of Mus musculus with 16 samples.

Results

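Nitric oxide, arginine, itaconate and antioxidant genes of macrophages were followed in an RNA immunoprecipitation of CPEB4, a protein that binds U-rich cytoplasmic polyadenylation elements (CPEs) in 3′-UTRs. The set held 8 genes, chosen by name as *Nos2*, *Acod1* (listed in older annotation as *Irg1*), *Arg1*, *Arg2*, *Ass1*, *Gch1*, *Sod2* and *Hmox1*, out of 14925 genes with a counted 3′-UTR. Each of them had 1 counted region. The cells were bone marrow-derived macrophages (BMDMs) of adult mice labelled C57BL/6J 129, grown for 7 days with M-CSF from L-cell medium. The titles number the wild-type (WT) libraries 76 and the *Cpeb4* knockout (KO) libraries, of a full-body knockout per the methods, 73. What these numbers stand for is not stated, and each is taken here as 1 culture. Each culture was left untreated or received lipopolysaccharide (LPS) of *E. coli* at 10 ng/ml for 9 h. RNA of the whole lysate (Input) and the RNA that came down with an antibody to CPEB4 (RIP) were sequenced, and ribosomal RNA was depleted from the Inputs, with no such step stated for the RIPs. The 16 samples were 8 libraries, each run on lanes 7 and 8, so each combination of genotype, treatment and assay had 1 library. How many animals gave a culture is not given in the sources used here. No difference between genotypes or between RIP and Input below therefore has a replicate check, the LPS response was seen in 1 culture of each genotype, and intervals cover counting error only.

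Activated macrophages take up arginine and spend it along competing routes. NOS2, the inducible nitric oxide synthase, turns arginine into nitric oxide and citrulline, with tetrahydrobiopterin as a cofactor, and arginases split arginine into ornithine and urea. ACOD1 sits in mitochondria and makes itaconate from aconitate of the tricarboxylic acid cycle, while SOD2 and HMOX1 protect the cell against superoxide and free haem.

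CPEs are the letters that CPEB proteins are known to bind, and their place in the counted regions was read first, since the RIP was made with an antibody to CPEB4. The CPE letters TTTTAT or TTTTAAT or TTTTAAAT or TTTTACT or TTTTCAT or TTTTAAGT or TTTTGT were searched on the transcript strand, and matches may overlap each other. The poly(A) signal hexamers AATAAA and ATTAAA and the AU-rich letters ATTTA were searched in the same way. *Arg1* and *Ass1* held no CPE match. For *Nos2*, *Acod1*, *Gch1*, *Sod2* and *Hmox1* the 30 bases with the most CPE matches are shown with the matches in capitals, and for *Arg1* and *Ass1* those around the last poly(A) hexamer, in capitals, all 5′ to 3′ from the GRCm38.p6 (mm10) sequence.
Nos2, chr11:78960204-78960233, plus strand: taaaatacaTTTTATTTTAATcaccctgag
Acod1, chr14:103056491-103056520, plus strand: tagcagTTTTATtgatgTTTTATtaatcac
Gch1, chr14:47154428-47154457, minus strand: agagctggtTTTTAATTTTATttttttttt
Sod2, chr17:13017948-13017977, plus strand: ttgttgaTTTTGTttgTTTTGTtttgagtg
Hmox1, chr8:75100445-75100474, plus strand: tggtaTTTTGTtgTTTTGTTTTGTcttgtt
Arg1, chr10:24915210-24915239, minus strand: taaactctttatAATAAAattctgttgtct
Ass1, chr2:31520634-31520663, plus strand: cataaaatgacaATTAAAagaagttacatt

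The *Sod2* region (chr17:13015172-13018119, 2948 bases) held 19 CPE matches and 8 ATTTA matches. Of the 1673 regions within 20% of its length, 98% held a CPE, with a median of 8, and 4.48% had at least as many as *Sod2*. *Nos2* (chr11:78959753-78960254, 502 bases) had 4 CPE and 3 ATTTA matches, where 61.9% of 1519 regions of like length held a CPE and 48.1% an ATTTA, and 9.68% and 7.64% had at least as many. *Hmox1* (chr8:75100020-75100596, 577 bases) also had 4 CPE matches, against 65% of 1648 like regions with any and 12.9% with at least as many. The 3 of them in the 30 bases shown are all TTTTGT, which 54.6% of all counted regions held. *Gch1* (chr14:47153895-47155797, 1903 bases) combined 3 CPE matches with 7 ATTTA matches. Of 2242 like regions 93.7% and 88.8% held each, and 75% and 11.7% had at least as many. *Acod1* (chr14:103055509-103056573, 1065 bases) had 2 CPE matches near its end, against a median of 2 in 2147 like regions, of which 83.6% held a CPE, and *Arg2* (270 bases) had 1, against 43.4% of 1024 like regions with any. The regions without a match, *Arg1* (chr10:24915208-24915609, 402 bases) and *Ass1* (chr2:31520418-31520672, 255 bases), had like regions of which 56.5% of 1289 and 41.4% of 963 held a CPE. The annotation places each region in the last exon of its gene, with the *Arg1* and *Hmox1* regions running past the end of the GENCODE exon. All 270 bases of the *Arg2* region overlap exons of *Vti1b* on the opposite strand, and whether strand was used in counting is not given in the sources used here, so reads of these genes cannot be told apart.

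**Figure D1:**
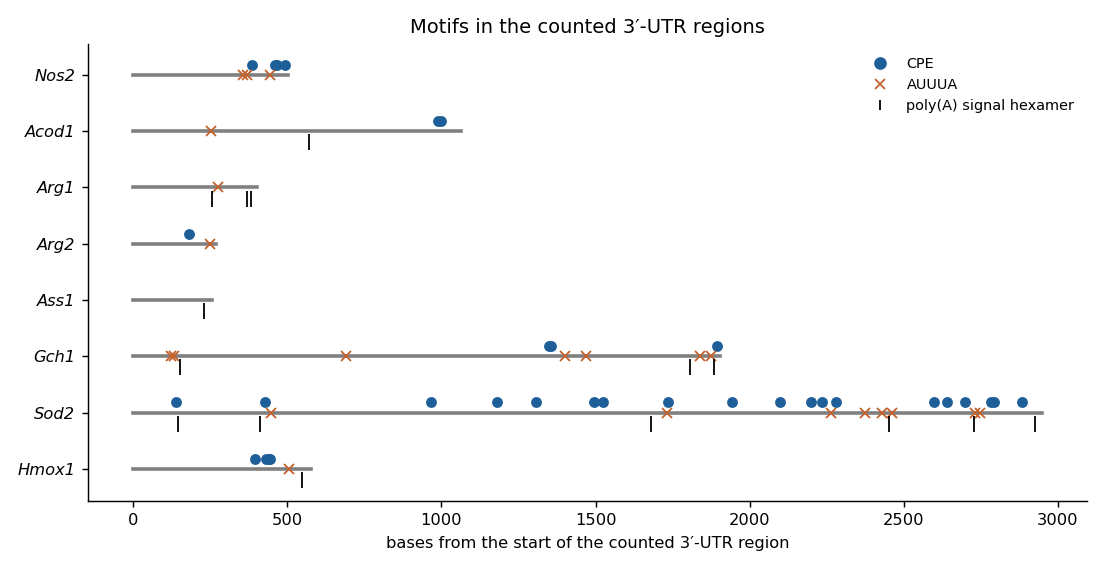
Positions of CPE matches (circles), AUUUA matches (crosses) and poly(A) signal hexamers (ticks) along the counted 3′-UTR region of each gene, in bases from its start, with a grey line for the region. *Sod2* carries 19 CPE matches, and *Arg1* and *Ass1* carry none.

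The 3′-UTR reads with a gene symbol, which set the scale of every value here as reads per 1000000 of them (RPM), numbered from 467696 in the untreated KO RIP to 2492300 in the WT RIP with LPS. They made up 46.4% to 51.1% of the library totals implied by the deposited RPKM in the 4 Inputs, 48.9% and 70.1% in the WT RIPs without and with LPS, and 27.3% and 31.8% in the KO RIPs. Scaling to those totals instead raised every WT over KO RIP ratio by 0.84 on the log2 scale without LPS and by 1.14 with LPS, so ratios between the RIPs rest on this choice. All 9 of 9 macrophage markers had at least 10 Input reads, with a summed level of 2647 to 3952 RPM in the Inputs. The counted markers of neutrophils (1 of 7 listed) and red cells (2 of 5) were at 0 in the Inputs, those of dendritic cells, B cells and fibroblasts (3 of 5 each) summed to at most 1.08 RPM, those of T cells (4 of 6) to at most 9.05, and those of alternative activation (3 of 5) to at most 36.2, while no mast cell marker was counted. *Cpeb4* itself had 130 and 136 RPM in the WT Inputs and 52 and 52.6 in the KO Inputs. Its 3′-UTR was thus still counted in the KO, at a level lower by 1.31 and 1.36 on the log2 scale, with intervals that left out 0, and since the deleted exons are not given in the sources used here, these reads do not show whether the protein was lost. The authors ran a CPEB4 immunoblot on WT and KO lysates of this experiment, which was not examined here.

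*Nos2*, the enzyme that makes nitric oxide, was at 0 reads in both untreated Inputs, which allows up to 3.23 RPM in WT and 2.26 in KO. With LPS it reached 598 reads in the WT Input and 540 in the KO Input, or 315 (95% Wilson interval 291 to 341) and 359 (330 to 391) RPM. In the RIPs it had 1 read in each untreated library, 907 reads (364 RPM) with LPS in WT and 398 reads (457 RPM) in KO. The LPS libraries were thus far above the untreated ones in both genotypes, by at least 97.6-fold in the WT Input and at least 159-fold in the KO Input when the untreated library is set at its limit of 3 reads, with 95% exact lower limits of 79.1 and 129 that also hold the counting error of the LPS library. In these bulk libraries, more cells with a transcript and more of it per cell cannot be told apart.

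*Gch1*, GTP cyclohydrolase, which catalyses the first step toward tetrahydrobiopterin, was already present without LPS. It had 28 reads (30.1 RPM) in the untreated WT Input and 30 (22.6) in the untreated KO Input, and with LPS 252 (133) and 177 (118). The RIPs held 31 reads (18.6 RPM) and 227 (91.1) in WT without and with LPS, and 5 (10.7) and 54 (62) in KO. LPS raised the Input level 4.27-fold in WT (log2 ratio 2.09, 95% interval 1.54 to 2.65) and 5.07-fold in KO (2.34, 1.79 to 2.89). All 4 RIP levels were below those of their Inputs.

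*Ass1*, argininosuccinate synthase, which starts the return of citrulline to arginine, had the lowest RIP levels relative to its Input with LPS in WT. It had 4 reads (4.31 RPM) and 8 reads (6.03) in the untreated WT and KO Inputs, then 113 (59.6) and 163 (108) with LPS. The RIPs had 2 reads (1.2 RPM) and 1 read (2.14) without LPS, and 56 (22.5) and 59 (67.7) with LPS in WT and KO. The KO level was the higher in all 4 pairs of libraries, although the untreated ones held at most 8 reads. These low counts left the LPS ratios wide, 13.8-fold (5.26 to 51.6, exact interval) in the WT Input and 18-fold (8.91 to 42.4) in the KO Input.

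*Arg1*, the cytosolic arginase, stood out by its RIP. It had 0 reads in both untreated Inputs and only 16 (8.43 RPM) and 10 (6.66) with LPS in WT and KO. The RIPs held 10 reads (6 RPM) in untreated WT, 181 (72.6) in WT with LPS, 5 (10.7) in untreated KO and 35 (40.2) in KO with LPS. Each RIP level was above its Input level, in KO as well as in WT. The mitochondrial arginase *Arg2* was barely counted, with 0, 1, 0 and 2 reads in the untreated and LPS Inputs of WT and then KO, 0 and 12 in the WT RIPs and 1 and 6 in the KO RIPs, over a region it shares with *Vti1b*.

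*Acod1*, the itaconate enzyme, moved with *Nos2*. It had 2 reads in each untreated Input, 1213 reads (639 RPM, 604 to 676) in the WT Input with LPS and 848 (564, 528 to 604) in the KO Input with LPS. In the RIPs it had 4 reads in each untreated library, 1672 (671 RPM, 639 to 704) with LPS in WT and 955 (1096, 1029 to 1168) in KO. The untreated libraries gave WT and KO Input ratios of 297-fold (82 to 2455, exact interval) and 374-fold (103 to 3095). The KO RIP with LPS was the highest of its 8 values.

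*Sod2*, the mitochondrial superoxide dismutase, had the most reads of the set with LPS. The Inputs held 133 reads (143 RPM) and 187 (141) without LPS and 2490 (1312, 1262 to 1365) and 2231 (1485, 1425 to 1548) with LPS in WT and KO. The RIPs had 247 (148 RPM) and 52 (111) without LPS, and 3926 (1575, 1527 to 1625) and 1213 (1392, 1316 to 1472) with it. The LPS library was the higher in all 4 pairs.

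*Hmox1*, haem oxygenase, which degrades haem to biliverdin, iron and carbon monoxide, was the most abundant of the set before LPS. Its Inputs held 304 reads (327 RPM, 292 to 366) and 319 (241, 216 to 268) without LPS, and 1378 (726, 689 to 766) and 1306 (869, 823 to 918) with LPS in WT and KO. The RIPs had 331 (199 RPM) and 66 (141) without LPS, and 1350 (542, 514 to 571) and 863 (990, 926 to 1059) with it. WT was above KO in both untreated pairs and below KO in both LPS pairs.

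**Figure D2:**
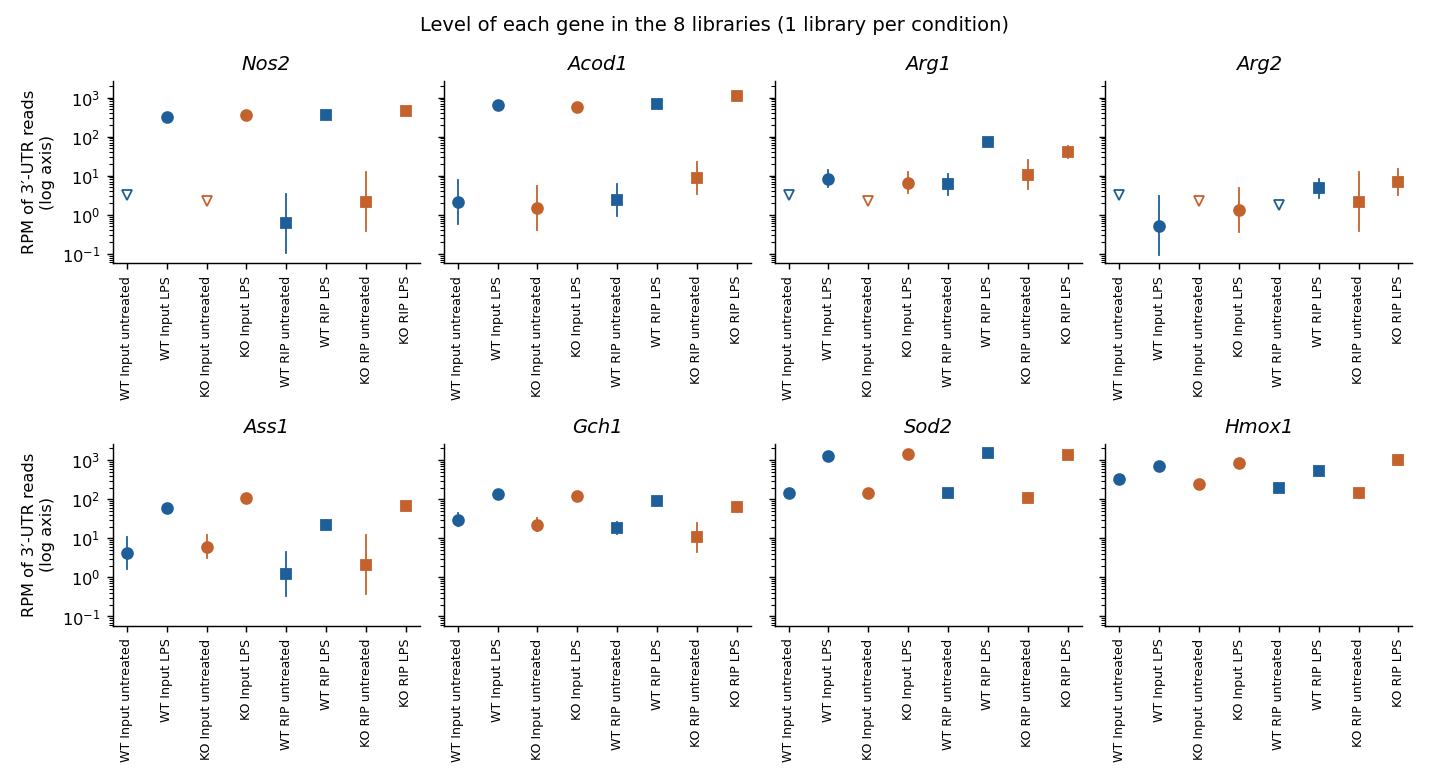
RPM (log axis) of each gene in the 8 libraries, blue for WT and orange for KO, circles for Input and squares for RIP, with 95% Wilson intervals. Open triangles mark libraries with 0 reads and stand at the level of 3 reads. *Nos2* and *Acod1* lie near the bottom in the untreated libraries and at 315 RPM or more with LPS.

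Per length, in RPM per kilobase of region, the order of levels in the WT Input with LPS was *Hmox1* (1259), *Nos2* (628), *Acod1* (600), *Sod2* (445), *Ass1* (234), *Gch1* (69.8), *Arg1* (21) and *Arg2* (1.95). Of neighbours in this order, the 95% intervals of *Nos2* (580 to 680) and *Acod1* (567 to 635) overlapped and no others did. In the KO Input with LPS the order was the same, from *Hmox1* at 1507 through *Nos2* at 716, *Acod1* at 530, *Sod2* at 504 and *Ass1* at 425 to *Gch1* at 61.9, *Arg1* at 16.6 and *Arg2* at 4.93, with overlapping intervals for *Acod1* (496 to 567) and *Sod2* (483 to 525), *Sod2* and *Ass1* (365 to 496), and *Arg1* (8.99 to 30.5) and *Arg2* (1.35 to 18). The untreated order was led by *Hmox1*, at 567 in WT and 417 in KO, ahead of *Sod2* at 48.6 and 47.8. The authors removed duplicate reads, which bounds how many reads a stretch of bases can hold. *Hmox1* reached 2.39, 2.26 and 2.34 reads per base in the WT Input, KO Input and WT RIP with LPS and 1.5 in the KO RIP with LPS, and *Nos2*, *Acod1* and *Sod2* reached 1.81, 1.57 and 1.33 in the WT RIP with LPS. The densest regions of at least 200 bases in those libraries held 3.41 to 4.76 reads per base. The part of this bound in the ratios was not tested.

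The first comparison asked which of these genes respond to LPS. Here and below a gene was called where the ratio passed 2-fold, its 95% counting interval left out 1 (0 on the log2 scale) and the pair held at least 10 reads, and log2 ratios were taken after adding 1 read to each library. In the WT Input 7 of 7 genes with enough reads were called higher with LPS, against 11.7% of 8163 genes tested. None was called lower, against 15.4%. In the KO Input 7 of 7 were higher, against 12.1% of 8250 genes, and none lower, against 18.5%. *Arg2* had too few reads in both. The median log2 ratio of the 7 genes was 3.19 in WT and 3.39 in KO, beside -0.08 and -0.18 over all genes tested. *Sod2* rose 9.1-fold in WT (3.19, 2.94 to 3.44) and 10.5-fold in KO (3.39, 3.17 to 3.60), and *Ass1* had log2 ratios of 3.48 (2.19 to 4.77) and 4.01 (3.04 to 4.98). *Arg1* was called higher against 0 untreated reads, by at least 2.61-fold in WT and at least 2.94-fold in KO against the limit of 3 reads, but the exact lower limits were 1.89 and 1.98. With 0.1 reads added *Arg1* was not called in either Input, and at a minimum of 50 reads it was not tested, which left 6 genes called. *Hmox1* rose least, 2.21-fold in WT (1.15, 0.97 to 1.33) and 3.6-fold in KO (1.85, 1.67 to 2.03). The WT minus KO difference of its LPS change was -0.70 (-0.95 to -0.45), the only one of the 7 whose interval left out 0. For *Sod2* this difference was -0.20 (-0.53 to 0.13), for *Gch1* -0.25 (-1.03 to 0.53), for *Ass1* -0.53 (-2.14 to 1.09), for *Acod1* -0.33 (-2.65 to 1.98), for *Nos2* -0.70 (-4.71 to 3.30) and for *Arg1* -0.22 (-4.37 to 3.92). A fit over both cultures, chosen after seeing the data, took the culture, which was also the genotype, as a block. It left 1 residual degree of freedom, and its spread came from the unequal LPS changes of WT and KO. Dispersions were moderated over the genes tested, so the spread is not that of each gene alone. By edgeR's quasi-likelihood test all 7 genes were higher with LPS in the Inputs, against 17.2% of 9218 genes, and none lower, against 22.5%, with *Arg1* at the largest Benjamini-Hochberg adjusted p (0.000117).

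**Figure D3:**
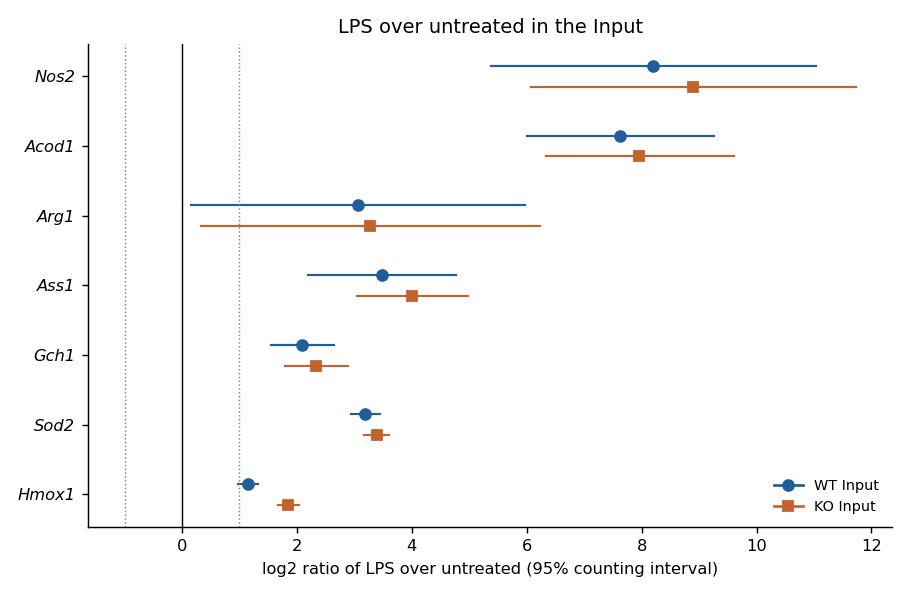
Log2 ratio of LPS over untreated in the WT (circles) and KO (squares) Inputs, with 95% counting intervals and dotted lines at 2-fold. All 7 genes shown lie above 0 in both genotypes, and *Hmox1* is lowest. The untreated Inputs had 0 reads of *Nos2* and *Arg1*, whose plotted ratios depend on the added read.

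The RIPs were compared in the same way. In the WT RIP 8 of 8 genes were called higher with LPS, against 10.6% of 8901 genes, and none lower, against 19.7%. In the KO RIP 7 of 7 were higher, against 11% of 7227 genes, and none lower, against 18%. In these libraries *Hmox1* rose 2.72-fold in WT (1.44, 1.27 to 1.62) and 6.92-fold in KO (2.79, 2.43 to 3.15), and *Arg1* 11.1-fold (3.47, 2.59 to 4.35) and 3.22-fold (1.69, 0.44 to 2.93). *Sod2* gave 10.6-fold (3.40, 3.22 to 3.59) and 12.3-fold (3.62, 3.22 to 4.02). *Arg2* was called in the WT RIP on 12 reads against 0 and was not called with 0.1 reads added. In the edgeR fit over both cultures 8 of 8 were higher in the RIPs, against 15.3% of 9581 genes, and none lower, against 23.6%, with *Arg2* at the largest adjusted p (0.0173).

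The second comparison set WT against KO Inputs, to see whether the genes differed before the immunoprecipitation. Without LPS none of the 4 genes with enough reads was called, against 1.22% of 7845 genes higher and 1.82% lower in WT. With LPS none of 7 was called, against 1.47% of 8151 genes higher and 1.5% lower. The gene nearest to a call was *Ass1*, at 0.55-fold in WT relative to KO (log2 ratio -0.86, -1.21 to -0.52). *Acod1* (0.18, 0.05 to 0.31) was above KO, and *Nos2* (-0.19, -0.36 to -0.02), *Sod2* (-0.18, -0.26 to -0.10) and *Hmox1* (-0.26, -0.37 to -0.15) were below, none past 2-fold. *Gch1* (0.17, -0.11 to 0.45) and *Arg1* (0.29, -0.80 to 1.39) had intervals that held 0.

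The third comparison asked which transcripts were enriched by the antibody over their Input. *Arg1* was called in both genotypes with LPS, 8.15-fold in WT (3.03, 2.31 to 3.74) and 5.64-fold in KO (2.50, 1.52 to 3.47). In WT with LPS 2 of 8 genes were called higher, *Arg1* and *Arg2* (2.31, 0.16 to 4.45), against 21.6% of 8767 genes, and *Ass1* was the 1 called lower (-1.39, -1.85 to -0.93), against 25.4%. In KO with LPS *Arg1* was the 1 of 7 called higher, against 15.1% of 7861 genes, and none was lower, against 9.04%. The WT call of *Arg2* rests on 12 RIP reads against 1 Input read, over the region it shares with *Vti1b*. In KO *Arg2* had 6 reads against 2, too few to be tested, at a log2 ratio of 2.01 (0.06 to 3.96). The RIP over Input ratio of *Arg1* lay at the 98.1 percentile of tested genes in WT and at the 98 percentile in KO, although its counted region held no CPE match. *Cpeb4* mRNA was also higher in the RIP of both genotypes with LPS, 5.65-fold in WT and 6.92-fold in KO.

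The median RIP over Input ratio with LPS was 0.14 for the 8 genes in WT and 0.19 for 7 in KO, beside -0.03 and 0.00 over all genes tested, and the members not named above lay within 2-fold of their Inputs. *Sod2*, the gene with the most CPE matches, had log2 ratios of 0.26 (0.19 to 0.34) in WT and -0.09 (-0.19 to 0.01) in KO. *Nos2* gave 0.21 (0.06 to 0.36) and 0.35 (0.16 to 0.53), and *Gch1* -0.54 (-0.80 to -0.29) and -0.91 (-1.34 to -0.47). *Acod1* was at its Input level in WT (0.07, -0.04 to 0.18) and near 2-fold above it in KO (0.96, 0.82 to 1.09). *Hmox1* was below its Input in WT (-0.42, -0.53 to -0.31) and above it in KO (0.19, 0.06 to 0.31). Without LPS none of 4 genes was called in WT, against 21.2% of 8359 genes higher and 19.8% lower, and none of 3 in KO, against 15.5% of 7708 genes higher and 7.75% lower. With the library totals implied by RPKM, *Hmox1* in WT with LPS was at 0.09 and in KO at -0.50, *Ass1* at -0.88 and -1.35, and *Arg1* at 3.54 and 1.81.

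**Figure D4:**
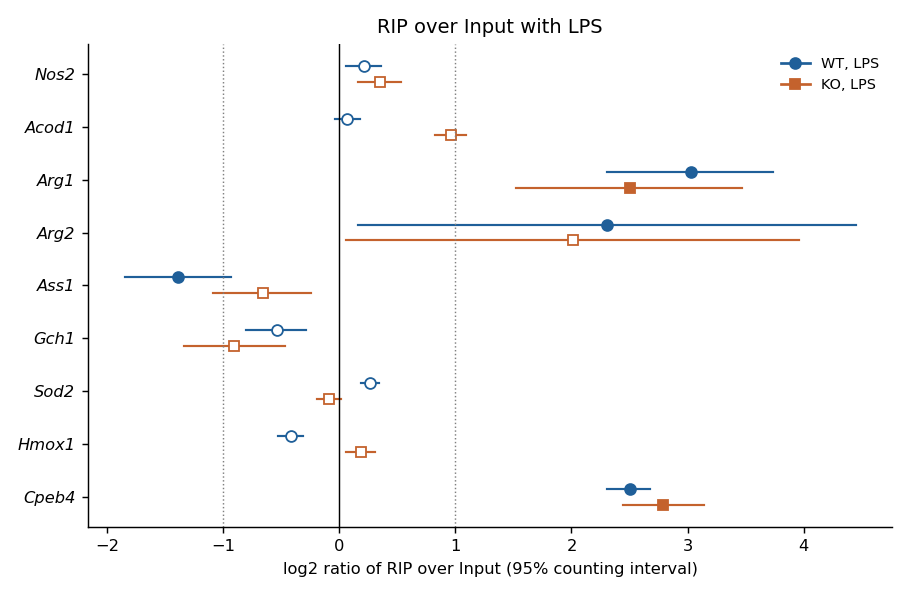
Log2 ratio of RIP over Input with LPS in WT (circles) and KO (squares), with 95% counting intervals, dotted lines at 2-fold and filled symbols for called ratios. *Arg1* and *Cpeb4* lie above 2-fold in both genotypes, and *Ass1* lies lowest in WT.

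WT over KO RIP is the comparison in which the KO cells served as the authors' control. With LPS the median log2 ratio of the 8 genes was -0.48, beside -0.04 over all genes tested. *Ass1* was the 1 of 8 genes called, at 0.332-fold in WT (-1.59, -2.11 to -1.07), against 14.9% of 8310 genes called lower, and none was called higher, against 7.11%. *Arg1* (0.82, 0.31 to 1.34), *Gch1* (0.54, 0.11 to 0.96) and *Sod2* (0.18, 0.08 to 0.27) were above the KO RIP, short of 2-fold. *Hmox1* (-0.87, -0.99 to -0.75), *Acod1* (-0.71, -0.82 to -0.59) and *Nos2* (-0.33, -0.50 to -0.16) were below it, and *Arg2* (-0.62, -1.95 to 0.70) had an interval that held 0. Without LPS none of 4 genes was called, against 5.95% of 8064 genes higher and 11.5% lower. *Hmox1* (0.48, 0.10 to 0.85) then lay above the KO RIP, *Sod2* was at 0.39 (-0.03 to 0.82), *Gch1* at 0.58 (-0.68 to 1.84) and *Arg1*, on 15 reads, at -0.96 (-2.39 to 0.48).

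The direction of several of these ratios depended on the scaling. *Arg1*, *Gch1* and *Sod2* were above the KO RIP with LPS and *Ass1* below it under the sum of 3′-UTR reads, TMM, the median of ratios and the library totals implied by RPKM. *Nos2*, *Acod1*, *Arg2* and *Hmox1* were below the KO RIP under the first 3 of these and above it, at 0.81, 0.43, 0.52 and 0.27, under the library totals. With those totals *Arg1* (1.96), *Gch1* (1.68) and *Sod2* (1.32) were called higher with LPS and *Ass1* (-0.45) was not called, while the share of all genes called higher went from 7.11% to 49.8% and that called lower from 14.9% to 1.14%. The study's own rule was applied without its peak score and on the 3′-UTR sums, where the authors took the fold change from RPKM. It was run as a chi-square test on the reads of the 2 libraries. The limits were an adjusted p below 0.02 with a log2 ratio past 0.5, or an unadjusted p below 0.02 with one past 1.2. The authors' rule calls enrichment only, and the same limits were mirrored here to call lower ratios. So applied, *Acod1*, *Ass1* and *Hmox1* were lower in the WT RIP with LPS, against 15.8% of 15893 regions. None was higher, against 9.4%. Under the library totals *Acod1*, *Ass1* and *Hmox1* were at 0.43, -0.45 and 0.27, and the rule was not run on that scale. Without LPS that rule called none of 4, against 5.82% of 15182 regions higher and 9.79% lower.

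**Figure D5:**
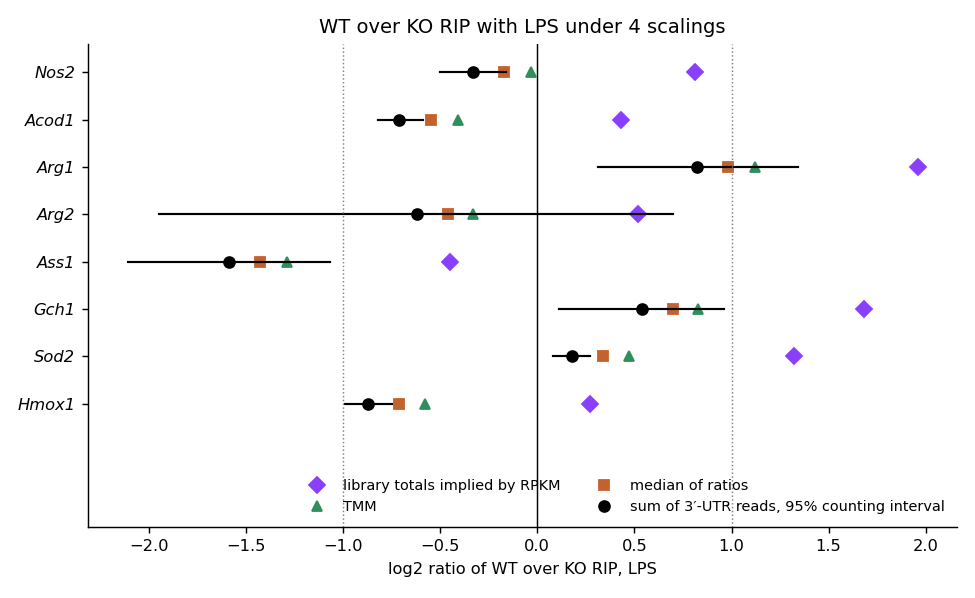
Log2 ratio of WT over KO RIP with LPS for each gene, scaled by the 3′-UTR sum (black circles with 95% counting intervals), by TMM (triangles), by the median of ratios (squares) and by the library totals implied by RPKM (diamonds), with dotted lines at 2-fold. The diamonds lie 1.14 to the right of the circles, and *Nos2*, *Acod1*, *Arg2* and *Hmox1* cross 0 there.

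Subtracting the Input ratio from the RIP ratio left none of the genes called. With LPS the input-corrected WT over KO log2 ratio was 0.53 (-0.68 to 1.74) for *Arg1*, 0.37 (-0.14 to 0.87) for *Gch1*, 0.36 (0.23 to 0.48) for *Sod2*, -0.14 (-0.38 to 0.10) for *Nos2*, -0.61 (-0.78 to -0.45) for *Hmox1*, -0.73 (-1.35 to -0.10) for *Ass1* and -0.89 (-1.06 to -0.72) for *Acod1*. The intervals of *Sod2*, *Hmox1*, *Ass1* and *Acod1* left out 0, but the share of all genes with such intervals was not computed. The median over all genes tested was -0.10. None of 7 was called, against 8.07% of 7575 genes higher and 15.7% lower. Under the library totals all 7 were above 0, and *Nos2* (1.06), *Arg1* (1.73), *Gch1* (1.56) and *Sod2* (1.55) were called. Without LPS none of 3 was called, against 9.47% of 7201 genes higher and 11.8% lower, and *Sod2* was at 0.37 (-0.17 to 0.90), *Gch1* at 0.17 (-1.29 to 1.62) and *Hmox1* at 0.03 (-0.41 to 0.47).

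The pathway partners of these genes were compared in the same Inputs, where 11.7% of all genes tested were higher and 15.4% lower with LPS in WT, and 12.1% and 18.5% in KO. Genes given as highest or lowest of a list are those with at least 50 reads in the pair. Of 20 genes of arginine and polyamine metabolism, 1 of 15 tested was higher and 4 were lower in the WT Input, and 2 and 4 of 16 in KO, with medians of -0.45 and -0.46. *Slc7a2*, an arginine transporter, went from 8 to 1955 reads in WT (6.73, 5.79 to 7.68) and from 8 to 1294 in KO (6.99, 6.04 to 7.93). *Odc1*, which turns ornithine into putrescine, had log2 ratios of 0.94 (0.24 to 1.63), not called, and 1.57 (0.78 to 2.35). Under the library totals, TMM and the median of ratios, 2 genes of this list were higher in WT and 2 in KO. *Glul*, glutamine synthetase, fell in both, at -2.29 (-2.53 to -2.04) in WT and -2.12 (-2.37 to -1.87) in KO. *Sat1* was lowest but for *Glul* in WT (-1.35, -1.79 to -0.90), and *Sms*, spermine synthase, in KO (-1.49, -2.22 to -0.76).

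The other tetrahydrobiopterin genes did not follow *Gch1*. Of 5 tested, none was higher in either genotype, *Spr* was among those called lower in WT, and the medians were -0.83 and -0.70. *Spr*, sepiapterin reductase, had log2 ratios of -1.03 (-1.63 to -0.43) in WT and -0.70 (-1.30 to -0.09) in KO, and *Qdpr*, which recycles the cofactor, -0.83 (-1.26 to -0.41) and -0.94 (-1.39 to -0.50). Around *Acod1*, 1 of 19 tested genes of the citrate and succinate list was higher and 3 were lower in WT, and 1 and 4 of 18 in KO, with medians of -0.33 and -0.01. Under the library totals, TMM and the median of ratios 3 were higher and 2 lower in KO, with medians of 0.13 to 0.18. *Slc25a10*, the mitochondrial dicarboxylate carrier, rose from 108 to 510 reads in WT and from 175 to 451 in KO (1.18, 0.93 to 1.43). *Idh1* (-2.01, -2.60 to -1.41 and -1.51, -1.99 to -1.04) and *Aco1* (-1.11, -1.77 to -0.45 and -1.05, -1.71 to -0.38) fell. *Acly*, which splits citrate in the cytosol, was at 0.61 (-0.18 to 1.40) in WT, not called.

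Antioxidant and glycolytic genes were more often higher than lower with LPS in these Inputs, beside the same shares over all genes (11.7% and 15.4% in WT, 12.1% and 18.5% in KO). Of 19 tested genes that handle superoxide, peroxide and glutathione, 6 were higher and 2 lower in WT (median 0.70), and 7 and 1 in KO (median 0.79). *Slc7a11*, the cystine transporter, was highest in both (6.65, 5.23 to 8.07 in WT and 4.53, 3.70 to 5.36 in KO), *Gsr*, glutathione reductase, followed in WT (2.23, 1.88 to 2.57) and the peroxiredoxin *Prdx5* in KO (2.95, 2.44 to 3.45). *Sod1* in WT and *Gclc* in KO were called lower on fewer than 50 reads. Of those with more, *Gpx1* was lowest in both, at -1.73 (-2.14 to -1.32) in WT and, not called, with an interval of -1.42 to -0.58 in KO, followed by *Gpx4* in WT (-0.78, -1.11 to -0.44) and catalase, *Cat*, in KO (-0.63, -0.99 to -0.27), neither called. Of 7 NADPH oxidase genes, *Ncf4* was higher in WT (2.46, 1.14 to 3.78), and *Ncf1*, *Ncf4* and *Rac2* in KO, with medians of 0.89 and 0.96. The WT count depended on the scaling, with 2 under the library totals, 4 under TMM and 3 under the median of ratios, where KO had 4 under each. Of the haem and iron genes, *Alas1* was called higher and *Slc40a1*, *Tfrc*, *Hfe* and *Bach1* lower in both genotypes, of 17 tested in WT and 18 in KO, with *Keap1* also higher in KO and medians of -0.21 and -0.06, the latter above 0 (0.08 to 0.13) under the library totals, TMM and the median of ratios. *Bach1*, a repressor of *Hmox1*, gave -1.73 (-2.08 to -1.38) in WT and -2.07 (-2.42 to -1.72) in KO, and *Tfrc*, the transferrin receptor, -1.58 (-2.01 to -1.16) and -2.25 (-2.73 to -1.77). Of 17 glycolysis genes, 7 were higher in WT and 12 in KO, none lower, with medians of 0.86 and 1.14, led by *Pfkfb3* (3.72, 3.42 to 4.01 and 4.01, 3.74 to 4.27). *Hif1a* followed in WT (2.85, 2.37 to 3.32) and the glucose transporter *Slc2a1* in KO (2.98, 2.67 to 3.29), while *Pkm* (-0.13, -0.28 to 0.01 and 0.22, 0.08 to 0.36) and *Aldoa* (0.08, -0.20 to 0.36 and 0.36, 0.09 to 0.63) moved least. As a check of the LPS labels, 7 of 8 tested response genes were higher in WT and 7 of 7 in KO, with none lower.

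The lists were also set between the RIPs of WT and KO with LPS, where 7.11% of all genes tested were higher and 14.9% lower in WT, and 49.8% and 1.14% under the library totals. In this comparison none of 17 glycolysis genes was higher and 8 were lower in the WT RIP than in the KO RIP, with a median of -0.76 against -0.04 over all genes, but 4 were higher and none lower under the library totals. *Eno1* (-1.74, -2.20 to -1.28) and *Pkm* (-1.65, -1.85 to -1.46) were lowest, and *Hk2* (0.72, 0.54 to 0.89) and *Slc2a1* (0.69, 0.50 to 0.88), not called, were highest. *Slc7a11* was the 1 antioxidant gene of 18 called higher in WT (1.88, 1.67 to 2.10), with 1980 reads against 187, and *Gpx1* (-1.94, -2.48 to -1.39) and *Prdx2* (-1.70, -2.11 to -1.30) led the 4 called lower, of which none stayed called under the library totals. TMM gave 3 antioxidant genes higher and the library totals 7. *Slc7a11* was also higher in the WT Input (1.05, 0.86 to 1.24), and its input-corrected ratio (0.83, 0.55 to 1.12) was not called. Among 16 haem and iron genes *Tfrc* (1.39, 0.75 to 2.03) and *Nfe2l2* (1.22, 0.70 to 1.74), the regulator of *Hmox1* and other antioxidant genes, were the 2 called higher, and *Slc11a1* (-1.48, -2.13 to -0.82) and *Fth1* (-1.29, -1.48 to -1.09) were lowest of 4 called lower, but 8 were higher and none lower under the library totals. The input-corrected ratio of *Tfrc* (0.93, 0.09 to 1.76) was not called, and *Nfe2l2* had too few Input reads for one. In the citrate and succinate list 2 of 20 were higher, *Aco1* (1.46, 0.32 to 2.59) and *Acly* (1.08, 0.54 to 1.63), and 4 were lower, with *Slc25a10* lowest (-1.71, -2.08 to -1.34), but 9 and none under the library totals. Of 14 arginine and polyamine genes none was higher and *Nosip* was lower, where 10 were higher and none lower under the library totals, and *Glul* was nearest to a call (0.98, 0.64 to 1.32). *Cyba* was among those called lower of the 7 NADPH oxidase genes and *Spr* was lower of 3 tetrahydrobiopterin genes, where 2 and 1 were higher and none lower under the library totals. Of 8 LPS response genes *Il6*, *Il12b* and *Ptgs2* were higher and *Saa3* lower, and 4 were higher and none lower under the library totals. None of the 3 was called higher in the input-corrected ratio, at 1.06 (-0.40 to 2.53) for *Il6*, -0.21 (-0.67 to 0.26) for *Il12b*, which was higher in the WT Input too (1.80, 1.47 to 2.13), and 0.84 (0.62 to 1.05) for *Ptgs2*. Other input-corrected ratios with LPS were called, against 8.07% of 7575 genes higher and 15.7% lower. In the citrate and succinate list *Aco1* (1.43, 0.09 to 2.77) and *Idh1* were higher and *Sdhb*, *Slc25a1* and *Slc25a10* lower. *Acly* (0.86, 0.04 to 1.68) was not called. *Glul* and *Aldh18a1* were higher and *Nosip* lower. Among glycolysis genes *Slc2a1* and *Pfkp* were higher and 8 lower. These were not recomputed under the library totals.

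Patterns most like those of the set were sought over the 8 libraries by the root mean square difference of centred log2 RPM, among 5463 genes with at least 50 reads in a library. *Nos2* and *Acod1* were each other's nearest gene (0.32), with *Il1b*, a proinflammatory cytokine, next for both (0.67 and 0.62), where the median gene differed from them by 4.09 and 3.87. *Sod2* was most like *Cd274* (0.22) and *Ak4* (0.24), *Gch1* most like *Ralgds* (0.23) and *Slc16a3* (0.24), and *Hmox1* most like the metallothionein *Mt1* (0.20) and *Marcksl1* (0.20). *Ass1* was nearest to *Phf11b* (0.35) and the interferon-induced *Usp18* (0.39), *Arg1* to *Abracl* (0.48) and *Tiparp* (0.57), and *Arg2*, on its few reads, to *Pi4k2b* (0.35) and *Nkiras1* (0.37).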

How the data were processed

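The 8 genes and the pathway and marker lists were chosen with earlier results of these data known. According to the methods, the authors aligned reads to mm10 with Bowtie2 2.2.2 in local mode, removed duplicates (sambamba), took read counts over the 3′-UTRs of Ensembl, and called peaks with MACS 1.4.2. The 4 deposited tables hold the same read counts for 8 libraries, both lanes summed, and the authors' RPKM for the libraries of each comparison, from which library totals were derived. They also hold the region's length in bases and the authors' own fold changes, p-values, peak scores and CPE predictions, which were not used.

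Rows without a symbol (495, with 0.902% to 1.04% of a library's reads) were left out, leaving 30622 rows of 14925 genes, each taken by its most-read region. Counts were scaled to the library's sum, and log2 ratios were taken with 1 read added and normal 95% counting intervals. Fewer than 10 reads in a pair, or in each pair of an input-corrected ratio, left a gene untested, and no ratio was formed where both libraries had at most 3 reads. Other scalings, reads added, read minimums, regions per gene and the study's rule were alternatives. The genes named from each list were the 2 highest and 2 lowest ratios among genes with 50 or more reads in both libraries together, and called genes of some short lists were added after their values were seen. Some genes of the lists and the *Arg2* sequence are not reported here. The LPS response was also tested over both cultures by edgeR's quasi-likelihood test with the culture as a block, in genes with at least 10 reads, an alternative chosen after seeing the data. Python 3.11.15, pandas 2.3.3, scipy 1.17.1 and edgeR 4.0.16 in R 4.3.3 were used.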

Additional observations from a re-analysis of the deposited data

Results flagged for a closer look

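*Hmox1* moved in opposite directions between conditions in 3 places, with counting intervals that left out 0 on both sides. With LPS its RIP over Input log2 ratio was -0.42 in WT and 0.19 in KO, a difference of 0.61. Its WT over KO ratio in the RIPs was 0.48 without LPS and -0.87 with LPS, a difference of -1.35, and in the Inputs it was 0.44 and -0.26, a difference of -0.70. None of these ratios was called, each rests on 1 library per condition, and whether the differences exceed the spread between cultures was not tested. With the library totals implied by RPKM the RIP over Input ratios turned round, to 0.09 in WT and -0.50 in KO, the WT over KO RIP ratios became 1.32 and 0.27, both above 0, and the Input ratios 0.46 and -0.32.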

How the results depend on the processing

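Each count of called genes was recomputed under up to 12 alternatives. Of 156 recomputed counts 139 stayed within 1.5 times the reported one, and the 7, 7, 8 and 7 genes called higher with LPS in the WT Input, KO Input, WT RIP and KO RIP were among those, although *Arg1* lost its call in both Inputs with 0.1 reads added. The library totals implied by RPKM gave 3 called genes for KO RIP over Input both without LPS (*Gch1*, *Sod2* and *Hmox1*, lower) and with LPS (*Arg1* higher, *Ass1* and *Gch1* lower), 3 for WT over KO RIP both without LPS (*Gch1*, *Sod2* and *Hmox1*, higher) and with LPS, and 1 (*Sod2*) and 4 for the input-corrected ratio without and with LPS. TMM gave 2 for WT over KO RIP with LPS, *Arg1* higher and *Ass1* lower. The study's rule without its peak score, run on the 3′-UTR sums and mirrored for lower ratios, gave 1 for WT over KO Input with LPS (*Ass1*, lower). It gave 2 for WT RIP over Input without LPS (*Arg1* and *Hmox1*) and 3 for WT over KO RIP with LPS. For KO RIP over Input it gave 1 without LPS and 3 with LPS. No minimum of reads gave 2 for KO RIP over Input without LPS and 2 with LPS, and 1 (*Acod1*, lower) for WT over KO RIP without LPS. At least 50 reads gave 0 for KO RIP over Input with LPS, since *Arg1* had 45 in the pair, and the 2-fold limit without an interval gave 1 (*Arg1*) for WT RIP over Input without LPS. Of 644 recomputed ratios of single genes 575 stayed within the counting interval and no called one changed sign. Taking the longest region or the sum over regions could not move a value, since each gene had 1 counted region. Each of these alternatives gave 92 of the ratios and 14 of the counts, all unmoved. The paired fit of the LPS change, with the culture as a replicate block over WT and KO, called 7 genes higher in the Inputs and 8 in the RIPs. In comparisons of WT with KO, genotype and culture cannot be told apart, and RIP over Input was not fitted this way.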
